A study of Mus musculus with 8 samples.

Results

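The 10 genes described here drive or brake the passage of a cell from G1 into S phase: the D-type cyclins Ccnd1, Ccnd2 and Ccnd3, their kinases Cdk4 and Cdk6, the inhibitors Cdkn1a, Cdkn1b, Cdkn2a and Cdkn2b, and the transcription factor Myc. They were chosen by symbol, as genes known to respond when vitamin D signaling slows proliferation, and each matched 1 of the 55414 mouse gene identifiers in the deposited table. D-type cyclins rise when a cell receives growth signals, bind Cdk4 or Cdk6, and start the phosphorylation of the retinoblastoma protein, which releases E2F factors to switch on the genes of S phase. The INK4 proteins (Cdkn2a and Cdkn2b) bind Cdk4 and Cdk6 directly, the Cip/Kip proteins (Cdkn1a, which encodes p21, and Cdkn1b, which encodes p27) block cyclin and kinase complexes more widely, and Myc raises the output of many growth genes. In the mammary gland cyclin D1 is needed for the growth of the lobules in pregnancy and is often raised in breast tumors, and vitamin D compounds are known to raise p21 and p27 and to lower Myc in many cultured cells.

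Bulk RNA-Seq was carried out on whole mammary tumors grown from the PyMt line, a single cell line made from a tumor of an MMTV-PyMt mouse, in which a mammary promoter drives a viral oncogene. The cells were injected orthotopically into the inguinal mammary fat pad of wild-type C57BL/6 female mice aged 6 to 8 weeks. The skin then received 20 nmol of calcipotriol, a vitamin D analog, dissolved in ethanol every 2 days from day 2, or ethanol (EtOH) as the solvent control, and tumors were taken 24 hours after the last dose. There were 4 tumors per group, numbered 1, 2, 3 and 4 with EtOH and 1, 5, 6 and 7 with calcipotriol, with 1 library each, and the comparison asks which genes differ in tumors of treated mice. Because a single line was implanted, the tumors are replicate hosts rather than independent cancers, and each library also holds RNA of stroma, vessels and immune cells. The labels call the cell type epithelial. Krt8 and Krt18, keratins of simple epithelium, were abundant in every tumor, with summed levels of the 8 epithelial markers of 1251, 1321, 1016 and 1085 CPM in the EtOH-treated tumors and 892, 603, 731 and 654 CPM in the calcipotriol-treated ones. The epithelial markers Epcam, Krt19 and Cldn4, however, had 0 counts in EtOH replicates 1 and 2, and the basal keratins Krt5 and Krt14 had 0 in EtOH replicate 2.

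The library totals were 20908409, 21912723, 25084715 and 23166539 counts for EtOH replicates 1, 2, 3 and 4, and 24673432, 22272072, 19685397 and 22383679 counts for calcipotriol replicates 1, 5, 6 and 7. Levels are given as CPM, the counts of a gene in 1000000 counts of its library, scaled by edgeR's TMM factors so that most genes do not differ between libraries. Some libraries stood apart within their group. Over the 14458 genes tested, the log2 CPM of EtOH replicates 1 and 2 correlated at r = 0.959 and those of EtOH replicates 3 and 4 at r = 0.958, whereas the 4 correlations across these pairs were 0.919 to 0.934 (across genes, which are not independent replicates). Calcipotriol replicate 1 correlated at 0.931 to 0.945 with the other calcipotriol-treated tumors, which correlated at 0.958 to 0.977 among themselves. Values are therefore given for each tumor, and results are also given without calcipotriol replicate 1.

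None of the 10 genes passed the test between the groups. The test is the quasi-likelihood test of edgeR, with p adjusted over all genes tested (Benjamini-Hochberg), and it has a pair of thresholds: 0.05 for the adjusted p, and 1 for the log2 fold change in either direction. SE below is the standard error of a log2 fold change. Counts were high enough for 9 of the 10 genes, all but Cdkn2a. Of these 9, 0 passed both thresholds, where 2.02% of all genes tested did (1.07% higher and 0.948% lower with calcipotriol), and 0 had an adjusted p under 0.05, where 2.74% did. At an unadjusted p under 0.05 edgeR gave 1 gene (Ccnd2), against 18.4% of all genes, DESeq2 gave 1 and limma-voom gave 0, and by these other tools too 0 passed after adjustment, though DESeq2 gave no adjusted p for Cdkn2b. The tumors of the groups overlapped for all 9 tested genes, so that 0 did not overlap, against 12.5% of all genes. The median log2 fold change was -0.06, beside 0.02 over all genes tested, with 3 genes above 0 and 6 below, where 7538 and 6920 of all genes tested were. The intervals leave room for differences in some of the genes: that of Ccnd2 reaches 3.13, whereas those of Ccnd3, Cdk4 and Cdk6 lie between -0.40 and 0.43.

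**Figure D1:**
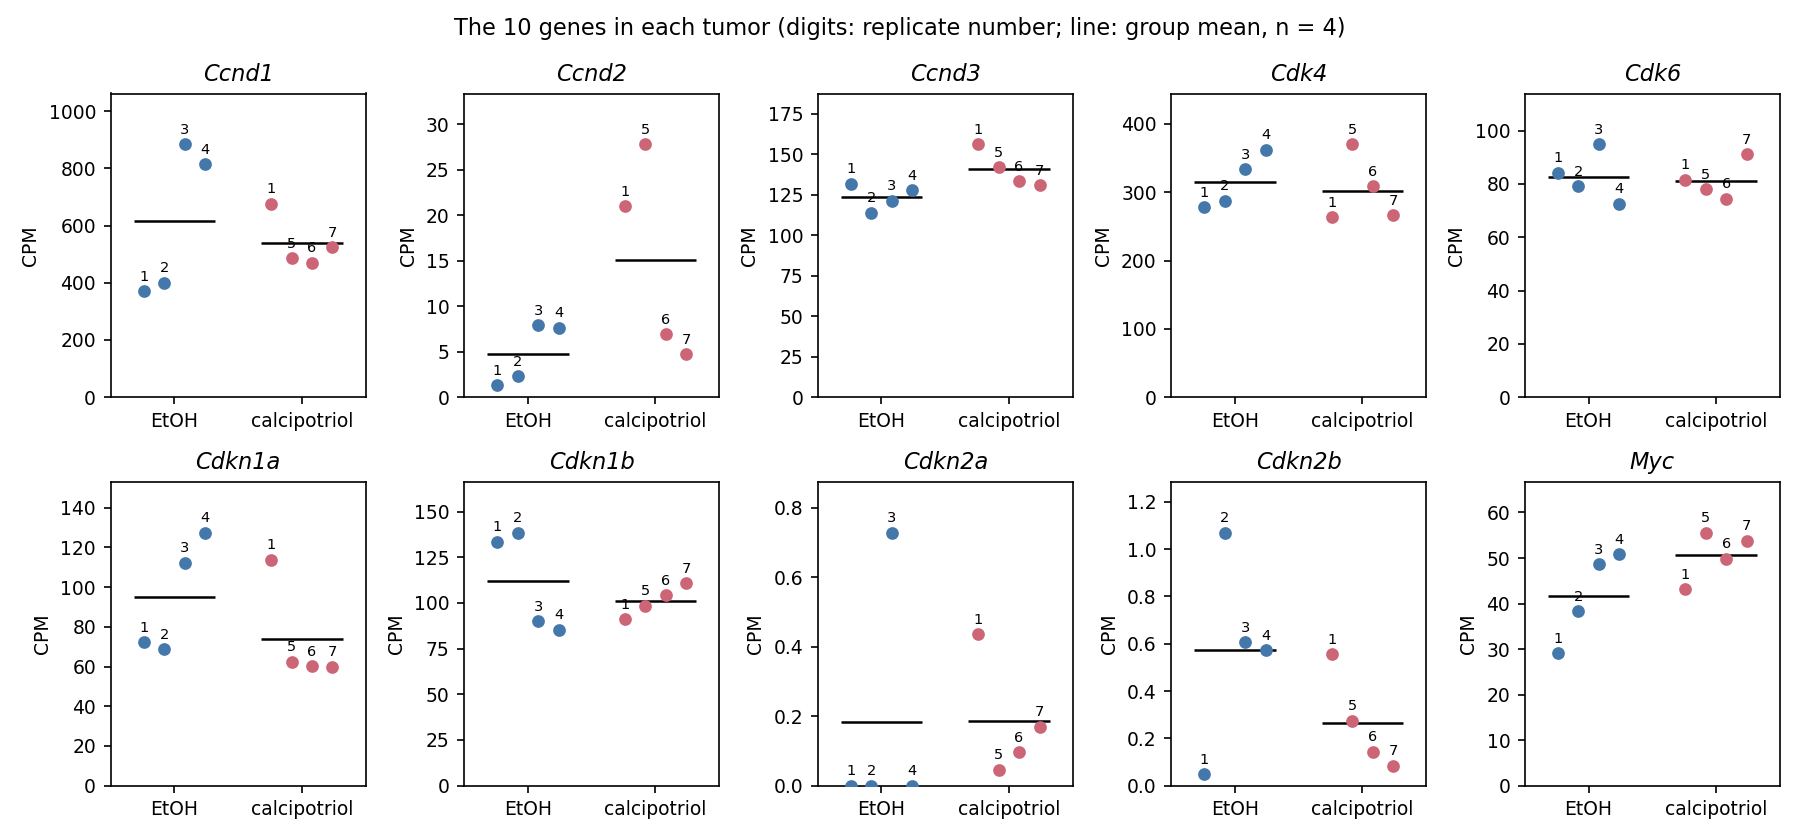
CPM of each of the 10 genes (vertical axis, starting at 0) in the 4 EtOH-treated and 4 calcipotriol-treated tumors, with a point per tumor, its replicate number beside it and the group mean as a line. Ccnd1 and Cdkn1a are higher in EtOH replicates 3 and 4 than in EtOH replicates 1 and 2, and Cdkn1b is lower in them.

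Among the D-type cyclins, Ccnd1 was the most abundant and its level differed more between EtOH-treated tumors than between the groups. Ccnd1 (ENSMUSG00000070348, chromosome 7, 144929931 to 144939925; positions here and below are in GRCm38) encodes cyclin D1, the D-type cyclin of the mammary epithelium. It was at 371, 400.3, 885 and 814 CPM in EtOH replicates 1, 2, 3 and 4 and at 677, 487, 469.7 and 524 CPM in calcipotriol replicates 1, 5, 6 and 7. The EtOH-treated tumors held both extremes, with replicates 1 and 2 lowest and 3 and 4 highest of all 8, and the calcipotriol-treated tumors lay between them. The group means were 618 ± 269.9 CPM with EtOH and 539.5 ± 94.7 CPM with calcipotriol (SD, n = 4), and the log2 fold change was -0.20 (SE 0.28, 95% interval -0.83 to 0.44, edgeR adjusted p = 0.769). Without EtOH replicate 3 it was 0.03, so the sign depends on that tumor. The annotation places LTO1 on the opposite strand over 1100 of the 4709 exon bases of Ccnd1, and since the library kit is not stated to keep the strand, reads from this stretch cannot be told apart; LTO1 itself was at 19.8 to 79.4 CPM.

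Ccnd2 (ENSMUSG00000000184, chromosome 6, 127125162 to 127152193), which encodes cyclin D2, had the smallest p of the 9 genes. It was at 1.31, 2.33, 7.93 and 7.62 CPM with EtOH and at 21.0, 27.8, 6.91 and 4.74 CPM with calcipotriol, in the same order of replicates. Calcipotriol replicates 1 and 5 were above every EtOH-treated tumor, but calcipotriol replicates 6 and 7 lay below EtOH replicates 3 and 4, so the groups overlapped. The means were 4.80 ± 3.46 CPM with EtOH and 15.1 ± 11.1 CPM with calcipotriol (SD, n = 4), and the log2 fold change was 1.65 (SE 0.67, 95% interval 0.17 to 3.13, edgeR adjusted p = 0.224), with an unadjusted p of 0.0320 from edgeR. Without calcipotriol replicate 5 the log2 fold change was 1.18 (adjusted p = 0.486 from edgeR), and without calcipotriol replicate 1 it was 1.45 (adjusted p = 0.278 from edgeR); over all fits that left out 1 tumor the log2 fold change was 1.18 to 2.005, and over these and the other settings the adjusted p was 0.0689 (DESeq2) to 0.486 (edgeR). Cyclin D2 is also the D-type cyclin of many blood cells, and the summed CPM of the 8 T cell markers was 3.21, 2.67, 1.66 and 1.32 CPM in the EtOH-treated tumors and 14.0, 4.06, 3.51 and 2.63 CPM in the calcipotriol-treated ones, highest in calcipotriol replicate 1; 0 of the 4 tested passed by edgeR, DESeq2 or limma-voom, with 0, 0 and 1 at an unadjusted p under 0.05, their most abundant gene was Cd2, and Cd3e had 0 counts in EtOH replicates 1, 3 and 4. The part of T cells in the level of Ccnd2 was not tested, and in bulk samples fewer cells of a type and less RNA per cell cannot be told apart. An antisense gene, Gm43126, shares 372 exon bases with Ccnd2, and it was highest in calcipotriol replicates 1 and 5 too, at 2.42 and 2.05 CPM.

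Ccnd3 (ENSMUSG00000034165, chromosome 17, 47505051 to 47599691), which encodes cyclin D3, varied least among the D-type cyclins. It was at 132, 114, 121 and 128 CPM with EtOH and at 156, 142, 133 and 131 CPM with calcipotriol. Calcipotriol replicate 1 was the highest of the 8 tumors, and the groups overlapped only narrowly, with EtOH replicate 1 at 132 CPM above calcipotriol replicate 7 at 131 CPM. The log2 fold change was 0.19 (SE 0.11, 95% interval -0.06 to 0.43, edgeR adjusted p = 0.415). The groups no longer overlapped when EtOH replicate 1 or calcipotriol replicate 7 was left out, or when library totals replaced TMM, and the adjusted p stayed above 0.05 in each of these fits; of all genes tested, 17.8%, 15.4% and 12.9% did not overlap in them. As shares of the summed level of the D-type cyclins per kilobase of exon, Ccnd1 took 83.9% to 92.8%, Ccnd3 6.82% to 15.99% and Ccnd2 0.149% to 2.41% of a tumor. The share of Ccnd1 was highest in EtOH replicates 3 and 4, and that of Ccnd2 in calcipotriol replicates 5 and 1.

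The kinases that the D-type cyclins switch on varied by less than the median gene in both groups. Cdk4 (ENSMUSG00000006728, chromosome 10, 127063534 to 127067920) was at 278, 288, 334 and 362 CPM with EtOH and at 263, 370.5, 309 and 267 CPM with calcipotriol. The highest and the lowest of the 8 tumors, replicates 5 and 1, were both calcipotriol-treated, and the groups overlapped throughout. Between the groups, the log2 fold change was -0.06 (SE 0.15, 95% interval -0.40 to 0.27, edgeR adjusted p = 0.871); it was 0.02 with library totals and 0.01 without EtOH replicate 4, so no direction can be given. Tspan31 on the opposite strand shares 641 of the 3249 exon bases of Cdk4 and was at 49.8 to 89.3 CPM, so some reads of the pair cannot be told apart. Cdk6 (ENSMUSG00000040274, chromosome 5, 3341485 to 3531008), the closest relative of Cdk4, was at 84.3, 79.2, 94.97 and 72.6 CPM with EtOH and at 81.6, 78.0, 74.4 and 91.2 CPM with calcipotriol. The highest tumor was EtOH replicate 3 and the lowest EtOH replicate 4, with all calcipotriol-treated tumors between them. The log2 fold change was -0.03 (SE 0.12, 95% interval -0.30 to 0.25, edgeR adjusted p = 0.940), and it was 0.06 with library totals, 0.05 without EtOH replicate 3 and 0.02 without calcipotriol replicate 6. Per kilobase of exon, Cdk4 made up 92.6% to 95.6% of the summed level of Cdk4 and Cdk6 in every tumor.

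Cdk4 is a textbook target of Myc, which binds the E-box CACGTG together with its partner Max. Promoter windows of 300 bases (250 before to 50 after a gene's start; RefSeq, GRCm38.p6) were at hand for 7 of the 10 genes, in 10 windows: Ccnd3, Cdk4, Cdk6, Cdkn1a, Cdkn1b, Cdkn2a and Cdkn2b. The letters CACGTG, which read the same on both strands, occurred in 7.15% of all 32851 windows, and among the 10 genes in the windows of Cdk4 and Cdk6. The Cdk4 window held 4 matches, a number reached by 8 of the 32851 windows (0.0244%). It is printed here because Cdk4 and Myc are both among the 10 genes, with the E-boxes in capitals (chr10:127063285-127063584, + strand).
Cdk4 promoter: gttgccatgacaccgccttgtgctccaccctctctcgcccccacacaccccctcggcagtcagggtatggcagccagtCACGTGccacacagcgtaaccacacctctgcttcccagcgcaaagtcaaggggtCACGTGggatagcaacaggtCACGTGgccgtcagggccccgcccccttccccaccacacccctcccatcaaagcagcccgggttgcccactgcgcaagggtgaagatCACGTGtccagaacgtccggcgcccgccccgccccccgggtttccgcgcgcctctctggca
A match describes the letters and is not a measured binding site. Over the 8 tumors the log2 CPM of Cdk4 and Myc correlated at r = 0.50 (n = 8, a description). Counted by gene, 2187 of 27025 genes had a match, and of the lists 8 of 21 Myc targets, 5 of 13 Myc partners, 6 of 15 p53 targets, 4 of 10 FoxO targets, 4 of 24 other G1/S genes, 2 of 16 E2F targets and 0 of 7 vitamin D genes.

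The Cip/Kip inhibitors split the EtOH-treated tumors in opposite directions. Cdkn1a (ENSMUSG00000023067, chromosome 17, 29090976 to 29100727), which encodes p21 and is induced by p53 among other signals, was at 72.2, 68.8, 112 and 127 CPM with EtOH and at 114, 62.5, 60.3 and 59.8 CPM with calcipotriol. EtOH replicates 3 and 4 and calcipotriol replicate 1 were high, and the other 5 tumors were low. Calcipotriol replicates 5, 6 and 7 were the lowest of the 8, below EtOH replicate 2 at 68.8 CPM, while calcipotriol replicate 1 lay within the EtOH range. The means were 95.1 ± 29.2 CPM with EtOH and 74.1 ± 26.5 CPM with calcipotriol (SD, n = 4), and the log2 fold change was -0.36 (SE 0.26, 95% interval -0.95 to 0.22, edgeR adjusted p = 0.513). Without calcipotriol replicate 1 it was -0.64 (95% interval -1.14 to -0.15, adjusted p = 0.121 from edgeR) and the groups did not overlap (over the fits that left out 1 tumor the log2 fold change was -0.64 to -0.19 and the adjusted p from edgeR 0.121 to 0.754), where 23.0% of all genes tested did not overlap in that fit. Cdkn1b (ENSMUSG00000003031, chromosome 6, 134920401 to 134925513), which encodes p27, was at 133, 138, 90.1 and 85.4 CPM with EtOH and at 91.2, 98.5, 104 and 111 CPM with calcipotriol. EtOH replicates 1 and 2 were the highest of the 8 and EtOH replicates 3 and 4 the lowest, so all calcipotriol-treated tumors lay inside the EtOH range. Calcipotriol against EtOH gave a log2 fold change of -0.15 (SE 0.17, 95% interval -0.53 to 0.24, edgeR adjusted p = 0.712), and -0.25 without EtOH replicate 4 to -0.03 without EtOH replicate 2 over the fits that left out 1 tumor. Per kilobase of exon, Cdkn1a made up 40.9, 38.9, 61.5 and 65.7% of the summed level of Cdkn1a and Cdkn1b in EtOH replicates 1, 2, 3 and 4 and 61.5, 44.8, 42.6 and 40.9% in calcipotriol replicates 1, 5, 6 and 7. The sum itself was 49.6, 49.8, 51.4 and 54.6 CPM per kilobase with EtOH and 52.1, 39.2, 39.8 and 41.2 with calcipotriol, lower in calcipotriol replicates 5, 6 and 7 than in the other 5 tumors.

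p53 binds a pair of short palindromic cores, and a RefSeq promoter window of Cdkn1a holds them, so it is printed beside the values of Cdkn1a. The pattern searched, CATG followed after any 6 bases by CATG, also reads the same on both strands. It occurred in 0.712% of the 32851 windows, and among the 10 genes only in 1 of the windows of Cdkn1a (chr17:29090729-29091028, + strand, GRCm38.p6), with the cores in capitals.
Cdkn1a promoter: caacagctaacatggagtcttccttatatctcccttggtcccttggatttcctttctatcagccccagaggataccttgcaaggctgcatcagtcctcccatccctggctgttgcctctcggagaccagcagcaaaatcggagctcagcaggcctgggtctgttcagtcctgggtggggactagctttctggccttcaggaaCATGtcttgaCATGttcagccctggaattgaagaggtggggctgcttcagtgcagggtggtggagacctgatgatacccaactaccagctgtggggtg
The other Cdkn1a window did not hold these letters, and 0 of the 15 genes on the list of p53 targets with a window did. No match says only that the letters are not in that window.

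The INK4 inhibitors were close to the limit of detection in every tumor. Cdkn2a (ENSMUSG00000044303, chromosome 4, 89274471 to 89294653) encodes the kinase inhibitor p16 and, from another reading frame, the p53 regulator p19ARF, which counts per gene cannot separate. It had 0, 0, 18 and 0 counts in EtOH replicates 1, 2, 3 and 4 and 11, 1, 2 and 4 counts in calcipotriol replicates 1, 5, 6 and 7, and was not tested. All 4 calcipotriol-treated tumors had a count, but EtOH replicate 3 had the most, at 0.728 CPM, so the groups overlapped; a count of 0 still allows 3 counts, or 0.146 CPM in EtOH replicate 1, for counting error only. Cdkn2b (ENSMUSG00000073802, chromosome 4, 89306299 to 89311039), the neighbouring gene, encodes p15, an inhibitor that responds to TGF-β. The EtOH-treated tumors had 1, 22, 15 and 13 counts of it, and the calcipotriol-treated ones 14, 6, 3 and 2. Scaled for library size, EtOH replicate 1 was the lowest of the 8 tumors and EtOH replicate 2 the highest, and calcipotriol replicate 1, at 0.556 CPM, lay next to EtOH replicates 3 and 4, at 0.607 and 0.573 CPM. The log2 fold change was -1.09 (SE 0.95, 95% interval -3.20 to 1.01, edgeR adjusted p = 0.589). Its interval is the widest of the 9. With a tumor left out it ranged from -0.62 without EtOH replicate 2 to -1.75 without calcipotriol replicate 1. Without EtOH replicate 1 the groups did not overlap in CPM, by less than 1 count, where 17.8% of all genes tested did not overlap in that fit.

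Myc (ENSMUSG00000022346, chromosome 15, 61985391 to 61990374) was at 29.1, 38.3, 48.7 and 50.8 CPM with EtOH and at 43.1, 55.6, 49.8 and 53.8 CPM with calcipotriol. EtOH replicates 1 and 2 were the lowest of the 8 tumors, and EtOH replicates 3 and 4 lay among the calcipotriol-treated tumors. The means were 41.7 ± 10.04 CPM with EtOH and 50.6 ± 5.52 CPM with calcipotriol (SD, n = 4), and the log2 fold change was 0.28 (SE 0.18, 95% interval -0.13 to 0.68, edgeR adjusted p = 0.459). It was above 0 in each of the 14 other fits, at 0.14 to 0.39 when a tumor was left out, with an adjusted p of 0.313 to 0.696 from edgeR.

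**Figure D2:**
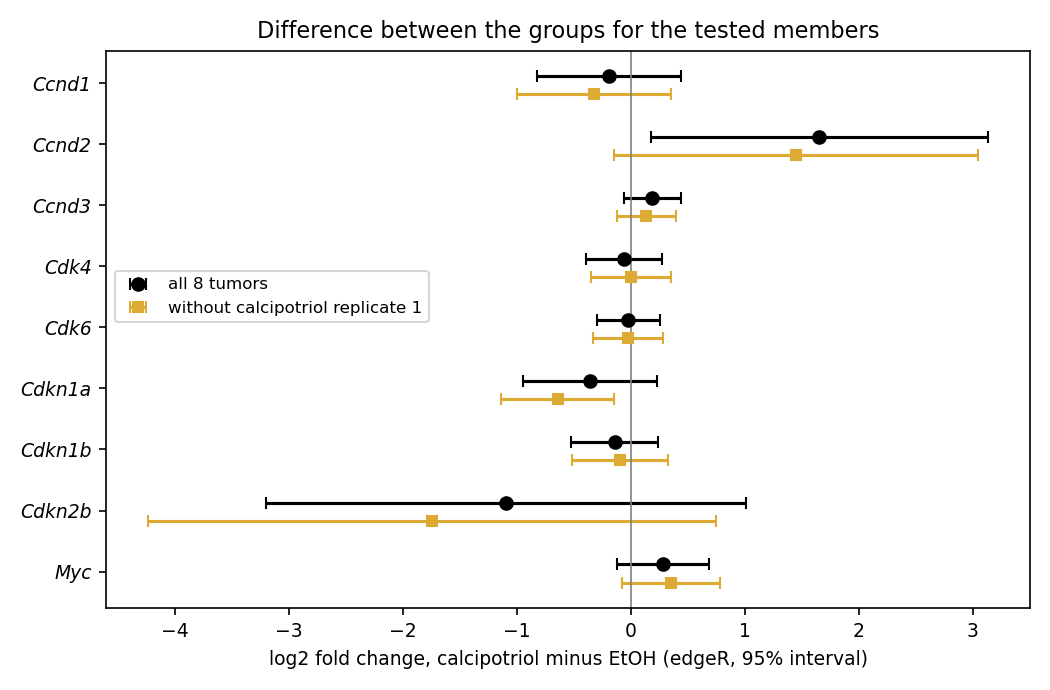
Log2 fold change (calcipotriol minus EtOH, horizontal axis) of the 9 tested genes from edgeR, with its 95% interval, over all 8 tumors (circles) and without calcipotriol replicate 1 (squares). Over all tumors only the interval of Ccnd2 leaves out 0 (0.17 to 3.13), and without calcipotriol replicate 1 only that of Cdkn1a does; 0 of the 9 genes had an adjusted p under 0.05 in either fit.

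Compared per length, as CPM per kilobase of exon, the 10 genes spanned a wide range of levels. Ccnd1 came first at 123 ± 40.7 CPM per kilobase (mean and SD over the 8 tumors), at percentile 97.4 of 14429 genes, followed by Cdk4 at 95.1 ± 13.0 (percentile 96.7); the ranges of both genes over the tumors overlapped. Cdkn1a at 23.8 ± 7.93, Cdkn1b at 23.4 ± 4.38, Myc at 17.0 ± 3.27 and Ccnd3 at 15.1 ± 1.46 formed a middle group in which each gene overlapped with the next. Every tumor's Cdk4 level was above every level of this middle group, which in turn lay above Cdk6 at 5.86 ± 0.559 CPM per kilobase. Ccnd2 at 1.06 ± 1.001 (percentile 22.3), Cdkn2b at 0.302 ± 0.250 and Cdkn2a at 0.157 ± 0.225 were lowest and overlapped with the next in order. The cyclin and the kinase that promote S phase thus had far more RNA per length than the INK4 genes in both groups.

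**Figure D3:**
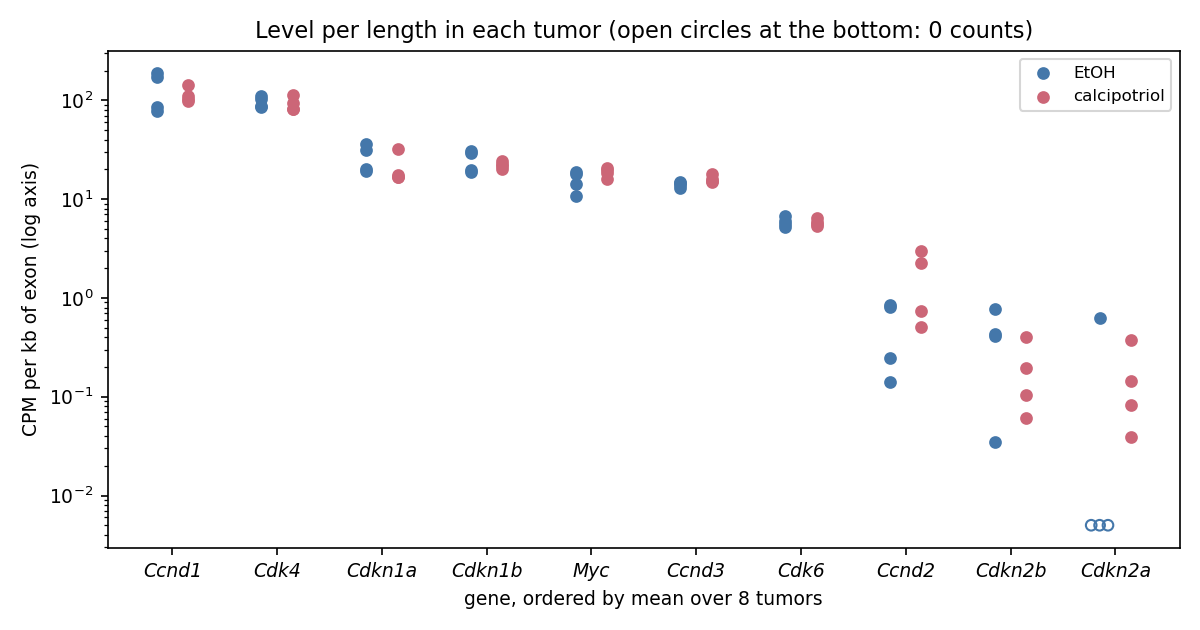
CPM per kilobase of exon (log axis) of each of the 10 genes, ordered by the mean over 8 tumors, with a filled point per tumor and open circles at the bottom for the 3 tumors without a count of Cdkn2a. Ccnd1 and Cdk4 lie between 78.7 and 188, and the INK4 genes at or below 0.770.

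Within a group, 5 of the 9 tested genes ranged wider than the median gene with EtOH and 3 with calcipotriol. As many of all genes lie above a median as below it, so these counts are near those of all genes. The log2 range over the 4 EtOH-treated tumors was 1.26 for Ccnd1, 2.52 for Ccnd2, 0.89 for Cdkn1a, 3.08 for Cdkn2b and 0.80 for Myc, all above the median of 0.71 over all genes tested. With calcipotriol Ccnd2 (2.53), Cdkn1a (0.93) and Cdkn2b (1.89) were above the median range of 0.63. The range was wider with calcipotriol than with EtOH for Ccnd2, Cdkn1a, Cdk4 (0.49 against 0.38) and Ccnd3 (0.25 against 0.21). It was narrower for the other tested genes. Ccnd1 and Cdkn1a were high in the same tumors (r = 0.83 of log2 CPM over the 8 tumors, a description), and Cdkn1b was low in them (r = -0.89 with Ccnd1). Ccnd2 also ran against Cdkn1b (r = -0.78, n = 8), whereas Cdkn1a and Myc did not vary together (r = 0.01, n = 8). All of these correlations share the same 8 libraries. In Ccnd1, Ccnd2, Cdk4, Cdkn1a, Cdkn1b and Myc, EtOH replicates 1 and 2 lay on the same side of EtOH replicates 3 and 4.

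The marker lists of other cells differed between these EtOH-treated tumors too. The summed CPM of the 6 skeletal muscle markers was 4.81, 3.99, 39.6 and 40.0 CPM in the EtOH-treated tumors and 2.14, 2.28, 7.78 and 6.01 CPM in the calcipotriol-treated ones, with Acta1 the most abundant and Myh4 and Ckm at 0 counts in EtOH replicates 1 and 2. Of these 6, 0 passed by edgeR (2 at an unadjusted p under 0.05), 1 by DESeq2 (Myh1) and 0 by limma-voom. With a minimum of 10 counts in every tumor, Myh1 passed by edgeR too (log2 fold change -1.41, adjusted p = 0.0382). The summed CPM of the 5 adipocyte markers was 28.6, 33.5, 48.2 and 55.2 CPM in the EtOH-treated tumors and 14.4, 29.2, 30.6 and 18.3 CPM in the calcipotriol-treated ones, led by Fabp4, with Adipoq and Plin1 at 0 counts in EtOH replicates 1 and 2; of 3 tested, Fabp4 fell past both thresholds. That of the 8 endothelial markers was 331, 359, 155 and 152 CPM in the EtOH-treated tumors and 113, 60.3, 78.3 and 87.2 CPM in the calcipotriol-treated ones, led by Cdh5, and 5 of 8 fell past both thresholds, but 2 without EtOH replicate 2 or calcipotriol replicate 5, 6 or 7, and 3 without EtOH replicate 1 or by limma-voom. That of the 6 neutrophil markers was 91.6, 102, 31.7 and 30.2 CPM in the EtOH-treated tumors and 38.5, 147, 65.7 and 47.1 CPM in the calcipotriol-treated ones, led by S100a9, with Ly6g at 0 counts in EtOH replicates 3 and 4; 0 of 5 tested passed by edgeR, DESeq2 or limma-voom, with 1 at an unadjusted p under 0.05 by each. Muscle and adipocyte markers were thus higher in EtOH replicates 3 and 4, as Ccnd1 and Cdkn1a were, and, within that group, endothelial and neutrophil markers were higher in EtOH replicates 1 and 2, as Cdkn1b was. Their part in the levels of these genes was not tested.

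Between the groups, 3 of 9 macrophage markers fell and 1 rose past both thresholds, with a summed CPM of 3207, 3497, 4293 and 4285 CPM in the EtOH-treated tumors and 2386, 1759, 1476 and 1369 CPM in the calcipotriol-treated ones, led by Lyz2. These 4 calls became 1 without EtOH replicate 1 or 2 or calcipotriol replicate 5, 6 or 7 (Lyz2, lower in each of these fits), 2 without EtOH replicate 3 or 4, and 7 without calcipotriol replicate 1. All 7 erythroid markers tested were lower and 5 passed both thresholds, with a summed CPM of 5592, 5832, 3507 and 3456 CPM in the EtOH-treated tumors and 820.1, 434, 609 and 532 CPM in the calcipotriol-treated ones, led by Hbb-bs; Slc4a1 had 0 counts in calcipotriol replicate 7. Of the 8 fibroblast markers, led by Col3a1, 0 passed by edgeR, DESeq2 or limma-voom, with 2 at an unadjusted p under 0.05 by each (1, Dcn, passed by edgeR without calcipotriol replicate 1), and their summed CPM was 6053, 5708, 5575 and 5095 CPM in the EtOH-treated tumors and 4107, 3845, 6016 and 6755 CPM in the calcipotriol-treated ones. Of the 6 keratinocyte markers found, 2 were tested and 0 passed by edgeR, DESeq2 or limma-voom (1 at an unadjusted p under 0.05 by each); Lor led them, Flg and Krt2 had 0 counts in all tumors, and the summed CPM was 13.6, 11.8, 9.79 and 11.7 CPM in the EtOH-treated tumors and 3.97, 5.48, 15.1 and 5.67 CPM in the calcipotriol-treated ones. Of the 8 epithelial markers, Krt14 rose past both thresholds (log2 fold change 5.17 (SE 1.07, edgeR adjusted p = 0.0336)), but its adjusted p was 0.446 from limma-voom, and of the 8 fits that left out a tumor it passed only in that without calcipotriol replicate 1. Krt14 had 0 counts in EtOH replicate 2, so the size of its fold change is poorly measured. Krt18 fell by 0.93 on the log2 scale with an adjusted p of 0.0162 from edgeR, which was above 0.05 without calcipotriol replicate 6 and without calcipotriol replicate 7. The part of the makeup of the tumors in the levels of the 10 genes was not tested.

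The genes whose log2 CPM followed that of Ccnd2 most closely over the 8 tumors, among the 11942 genes whose mean reached 50 counts, were Ssu72, Slc35b1, Mif, Mplkip and Hbegf, with Pearson's r of 0.976, 0.972, 0.959, 0.954 and 0.951. Mif, a cytokine that restrains macrophage migration, was at 151, 163, 222 and 270.0 CPM with EtOH and at 333, 418, 206 and 189.9 CPM with calcipotriol. Hbegf, a ligand of the EGF receptor, was at 34.7, 31.8, 66.8 and 62.04 CPM with EtOH and at 152, 129, 76.2 and 67.0 CPM with calcipotriol. Calcipotriol replicates 1 and 5 were the highest tumors for both, as for Ccnd2, and EtOH replicates 1 and 2 the lowest. This order follows from how the genes were picked and is no separate result. Ssu72, Slc35b1, Mif and Mplkip overlapped between the groups, with edgeR adjusted p of 0.328 to 0.492. Hbegf did not overlap between the groups, with a log2 fold change of 1.12 (SE 0.32, 95% interval 0.41 to 1.82, edgeR adjusted p = 0.0920); it passed both thresholds by DESeq2 (adjusted p = 0.00761), and the adjusted p was 0.0890 from limma-voom.

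Among 31 tested genes of the rest of the G1/S machinery (other cyclins, kinases and inhibitors, the retinoblastoma family, E2F factors and ubiquitin ligases), 0 passed by edgeR, with 3 at an unadjusted p under 0.05; DESeq2 gave 2 with an adjusted p under 0.05 and limma-voom 0. The median log2 fold change was -0.02 (-0.11 to 0.07 when a tumor was left out, 0.07 with library totals), beside 0.02 over all genes tested, and 3 of 31 genes did not overlap between the groups, no more than the 12.5% of all genes tested. As for every list here, the counts stand beside 2.02% of all genes past both thresholds and 18.4% at an unadjusted p under 0.05 by edgeR. E2f7, a repressor among the E2F factors, was at 16.6, 16.6, 24.4 and 18.6 CPM with EtOH and at 8.81, 6.98, 10.9 and 13.6 CPM with calcipotriol. The highest calcipotriol-treated tumor was below the lowest EtOH-treated one. Its log2 fold change was -0.92 (SE 0.24, 95% interval -1.44 to -0.40, edgeR adjusted p = 0.0678), and the adjusted p was 0.0101 from DESeq2. Fbxw7, the ubiquitin ligase subunit that marks cyclin E and Myc for destruction, was at 18.4, 16.9, 22.0 and 21.7 CPM with EtOH and at 26.5, 27.2, 30.2 and 29.3 CPM with calcipotriol. The lowest calcipotriol-treated tumor was above the highest EtOH-treated one. The log2 fold change was 0.52 (SE 0.14, 95% interval 0.20 to 0.84, edgeR adjusted p = 0.0850), and the adjusted p was 0.0215 from DESeq2. E2f3, an activator, did not overlap either, at 14.8 to 19.0 CPM with EtOH and 19.2 to 22.8 CPM with calcipotriol (log2 fold change 0.35 (SE 0.15, edgeR adjusted p = 0.246)). E2f1, another activator, ranged from 39.3 to 85.1 CPM with EtOH and from 41.0 to 55.9 CPM with calcipotriol, highest in EtOH replicates 3 and 4 (log2 fold change -0.40 (SE 0.22, edgeR adjusted p = 0.367)).

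The summed level of the E2F target genes of S phase, which build the replication machinery and its nucleotides, was higher in the EtOH-treated tumors with more Ccnd1, though not that of every gene. The summed CPM of the 20 genes was 963, 999, 1596 and 1650.1 CPM in the EtOH-treated tumors and 953, 1126, 1140.2 and 1165 CPM in the calcipotriol-treated ones. EtOH replicates 3 and 4 stood above the other 6 tumors, and EtOH replicates 1 and 2 lay near calcipotriol replicate 1, so the groups overlapped. Calcipotriol replicate 1 went the other way: its sum was the lowest of the 8 tumors, and its Ccnd1, at 677 CPM, the highest of its group. The log2 fold change was below 0 for 17 of 20 genes, where it was for 6920 of the 14458 genes tested. The 20 genes share the same 8 libraries and are not independent. Their median was -0.22, beside 0.02 over all genes tested. The median was -0.05 without EtOH replicate 3, -0.11 without EtOH replicate 4, -0.35 without EtOH replicate 1 and -0.35 without EtOH replicate 2. None of the 20 passed both thresholds by edgeR, DESeq2 or limma-voom, and 3, 3 and 2 had an unadjusted p under 0.05. Cdt1, which loads the replicative helicase onto DNA, was at 49.95, 48.8, 53.8 and 48.6 CPM with EtOH and at 36.0, 30.3, 28.1 and 31.0 CPM with calcipotriol. All 4 calcipotriol-treated tumors were below all EtOH-treated ones, and Cdt1 fell by 0.68 on the log2 scale (standard error 0.12, adjusted p = 0.0210 from edgeR), the only gene of the list with an adjusted p under 0.05, where 1.37% of all genes tested were lower with such a p. Its adjusted p from edgeR was 0.0398 without EtOH replicate 4 and 0.00834 without calcipotriol replicate 1, but 0.0519, 0.0517 and 0.0604 without EtOH replicates 1, 2 and 3 and 0.0631, 0.0838 and 0.0715 without calcipotriol replicates 5, 6 and 7, each left out in turn. Mcm6, a subunit of that helicase, was at 126, 147, 211 and 230.2 CPM with EtOH and at 110.2, 119.9, 122 and 139 CPM with calcipotriol, and the groups overlapped (log2 fold change -0.54 (SE 0.19, edgeR adjusted p = 0.167)). Of the 3 genes with a log2 fold change above 0, Gins2 had the smallest p, with a log2 fold change of 0.04.

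No partner or target of Myc on the lists passed the test. Of all genes tested, 2.02% passed both thresholds and 18.4% had an unadjusted p under 0.05 (edgeR), so counts of 0 in lists this short say little. Of 12 tested partners and antagonists, which pair with Max or compete for it, 0 passed by edgeR, DESeq2 or limma-voom, 0 had an unadjusted p under 0.05 by each, and the median log2 fold change was -0.08 (-0.11 to 0.04 when a tumor was left out). Mxd4, an antagonist that binds Max in cells that stop dividing, was at 155, 139.6, 62.6 and 56.0 CPM with EtOH and at 71.8, 63.1, 79.1 and 73.1 CPM with calcipotriol. EtOH replicates 1 and 2, where Ccnd1 and Myc were lowest, were the highest for Mxd4, and the other 6 tumors lay close together (log2 fold change -0.52 (SE 0.30, edgeR adjusted p = 0.394)). The other genes with the smallest p in each direction were Mlxip (0.39), Mycn (0.47) and Mlxipl (-1.37). Of 25 Myc target genes, 0 passed by edgeR, DESeq2 or limma-voom, with 2 at an unadjusted p under 0.05 by each, and the median log2 fold change was 0.11, but -0.01 without EtOH replicate 1 and -0.03 without calcipotriol replicate 5, so its sign depends on single tumors. Nop56, a protein of the machinery that modifies ribosomal RNA, was at 55.0, 47.5, 74.6 and 77.5 CPM with EtOH and at 74.8, 131, 92.6 and 89.8 CPM with calcipotriol. Calcipotriol replicate 5 was the highest tumor and EtOH replicates 1 and 2 the lowest, with a narrow overlap at EtOH replicate 4 and calcipotriol replicate 1 (log2 fold change 0.61 (SE 0.21, edgeR adjusted p = 0.151)). The nucleolar protein Nolc1 followed at 0.50, and on the other side were Odc1, the enzyme that starts polyamine synthesis, at -0.24, and Cad, which starts pyrimidine synthesis, at -0.25.

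Of 20 p53 target genes, which share with Cdkn1a their response to p53, 1 passed both thresholds and the median log2 fold change was 0.19 (0.09 to 0.30 when a tumor was left out), beside 0.02 over all genes tested. Of all genes tested 2.02% passed both; 6 of the 20 had an unadjusted p under 0.05, where 18.4% of all genes did, and 3 of the 20 did not overlap between the groups, where 12.5% of all genes did not. DESeq2 gave 3 with an adjusted p under 0.05, of which 2 passed both thresholds (Perp higher and Pmaip1 lower), and limma-voom gave 1, Perp. With a minimum of 10 counts in every tumor, Perp was too low to be tested, and edgeR put 0 of the genes still tested past both thresholds. Perp, a desmosome protein of epithelia as well as a p53 target, was at 0.194, 0.195, 2.47 and 0.441 CPM with EtOH and at 8.29, 23.5, 16.6 and 14.4 CPM with calcipotriol. All 4 calcipotriol-treated tumors were above all EtOH-treated ones, and Perp rose by 4.21 on the log2 scale (standard error 0.75, adjusted p = 0.0199 from edgeR). EtOH replicates 1 and 2 were close to the floor, where 3 counts make 0.146 CPM in each. Perp could pass the filter only with the calcipotriol-treated tumors, and the size of its fold change is poorly measured. The adjusted p from edgeR was 0.0515 without EtOH replicate 2 and 0.0583, 0.0596 and 0.0535 without calcipotriol replicates 5, 6 and 7, each left out in turn, and under 0.05 in the other 4 such fits; the log2 fold change was 3.89 to 5.78, highest without EtOH replicate 3. Groups that did not overlap, singled out after their values were seen, were also those of Phlda3, an inhibitor of Akt signaling (log2 fold change 0.58 (SE 0.19, edgeR adjusted p = 0.138), and 0.0487 from DESeq2), and Pmaip1, which encodes the death-promoting protein Noxa (log2 fold change -1.15 (SE 0.36, edgeR adjusted p = 0.125), and 0.0376 from DESeq2). Of 11 tested FoxO target genes, a family that Cdkn1b belongs to in many cells, 0 passed by edgeR, with 1 at an unadjusted p under 0.05; DESeq2 and limma-voom each gave 1 with an adjusted p under 0.05. Their median log2 fold change was -0.12 (-0.40 to 0.04 when a tumor was left out), and their summed CPM was 1384, 1363, 786 and 779.8 CPM in the EtOH-treated tumors and 977, 1243, 1222 and 1083 CPM in the calcipotriol-treated ones. As for Cdkn1b, EtOH replicates 1 and 2 were the highest of the 8 tumors and EtOH replicates 3 and 4 the lowest. Gadd45b, a stress sensor, did not overlap between the groups (log2 fold change 0.93 (SE 0.22, edgeR adjusted p = 0.0568)), and its adjusted p was 0.0222 from edgeR without calcipotriol replicate 1, within a range of 0.0222 to 0.166 over the fits that left out 1 tumor. It also passed both thresholds with library totals (1.02, edgeR adjusted p = 0.0409), and its edgeR adjusted p was 0.0261 with no filter and 0.0482 with the minimum of 10 counts. The others with the smallest p in each direction were Gadd45a (0.45), Fbxo32 (-0.88) and Sesn3 (-0.40).

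Of 9 genes of the vitamin D receptor and its targets, 4 were tested and 0 passed by edgeR, with 3 at an unadjusted p under 0.05; DESeq2 gave 1 with an adjusted p under 0.05 and limma-voom 0. The median log2 fold change was 0.30, but 0.27 to 0.90 when a tumor was left out and 0.79 with no filter; most of these fits also test other genes of the list, so the medians are not over the same genes. Cyp24a1, the enzyme that breaks down active vitamin D, had too few counts for the main test, with 0 counts in all EtOH-treated tumors and in calcipotriol replicate 1, and 5.93, 1.73 and 2.20 CPM in calcipotriol replicates 5, 6 and 7. It passed both thresholds with no filter (edgeR adjusted p = 0.0135) and without calcipotriol replicate 1 (edgeR adjusted p = 0.00772). With the filter on, Cyp24a1 could enter a fit only through the calcipotriol-treated tumors that had counts. Over a group at 0 counts its fold change has no measured size, so no conclusion is drawn from these calls. Vdr, the receptor that calcipotriol binds, was at 68.4, 49.9, 29.2 and 30.5 CPM with EtOH and at 56.9, 81.5, 77.6 and 80.0 CPM with calcipotriol. Calcipotriol replicates 5, 6 and 7 were the highest of the 8 tumors, and calcipotriol replicate 1 was below EtOH replicate 1 (log2 fold change 0.73 (SE 0.26, edgeR adjusted p = 0.171)). Spp1, the secreted protein osteopontin, was at 10226, 12171, 11596 and 11656 CPM with EtOH and at 12243, 22506, 23002 and 23351 CPM with calcipotriol. Calcipotriol replicate 1 was only just above EtOH replicate 2, the highest of its group, so the groups did not overlap, and the other calcipotriol-treated tumors were far higher, with a log2 fold change of 0.83 (SE 0.22, edgeR adjusted p = 0.0714) over all tumors and 1.01 (adjusted p = 0.00407 from edgeR) without calcipotriol replicate 1; leaving out other tumors gave an adjusted p of 0.128 to 0.187. The receptor's partners Rxra and Rxrb were at log2 fold changes of -0.33 and -0.13. Calcipotriol replicate 1 was thus nearer to the EtOH-treated tumors than the other calcipotriol-treated ones for Cdkn1a, Vdr and Spp1. For Ccnd3 (156 CPM) and Hbegf (152 CPM) it was the highest of the 8 tumors, and so the farthest from the EtOH-treated ones.

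**Figure D4:**
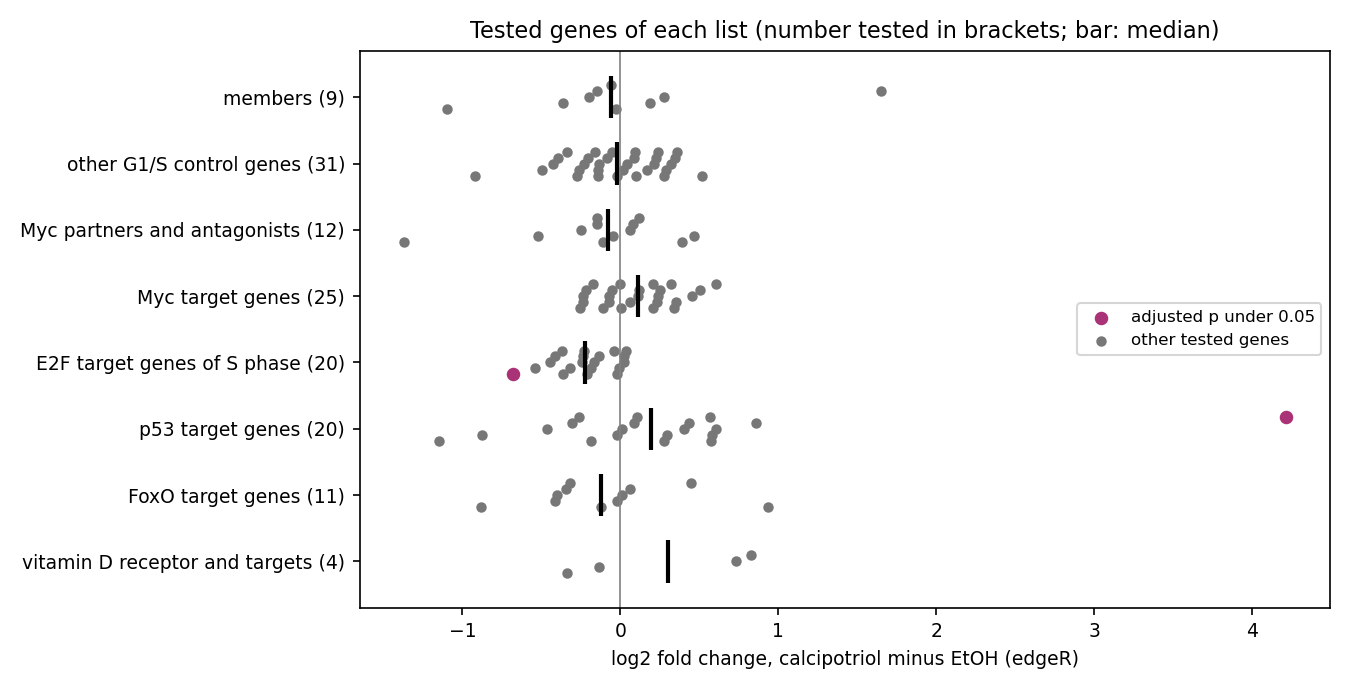
Log2 fold change (calcipotriol minus EtOH, horizontal axis) of every tested gene of the 10 and of the 7 related lists, from edgeR, with a point per gene and a bar at the median; colored points have an adjusted p under 0.05. Only Cdt1 (-0.68) and Perp (4.21) are colored, and 17 of the 20 E2F target genes lie below 0, where 6920 of the 14458 genes tested do.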

How the data were processed

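The authors deposited expected counts (estimated counts, not scaled between tumors) for each gene and each of the 8 tumors. The submitters' processing notes name STAR 2.5.3, RSEM 1.3.1, DESeq2 1.24.0 and GRCm38. The labels name a NovaSeq sequencer and the paper a HiSeq. The tests were planned for whole counts, so the values were rounded to whole numbers. Symbols, positions and exon lengths came from GENCODE M21 (GRCm38), which matched 52081 of 55414 identifiers.

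The main test ran under R 4.3.3. It was the quasi-likelihood F-test of edgeR 4.0.16 after its filterByExpr filter and TMM scaling, with p-values adjusted by Benjamini-Hochberg over the 14458 genes tested and thresholds of 0.05 for the adjusted p and 1 for the absolute log2 fold change. Log2 CPM used a prior count of 2. The biological coefficient of variation was 0.347. Alternatives were DESeq2's size factors, library totals, no filter, a minimum of 10 counts in every tumor, DESeq2 1.42.0, limma-voom (limma 3.58.1) and fits that leave out 1 tumor. The scripts were tested on simulated data. Figures and tables were made with Python 3.11.15.

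The 10 genes and the lists (other G1/S control genes, Myc partners, Myc targets, E2F targets, p53 targets, FoxO targets, vitamin D genes and 10 lists of cell markers) were chosen with earlier results of these data known. Beside the 10 genes, the text names every gene past both thresholds in a related list, up to 6, or otherwise up to 2 with the smallest p in each direction, and the 5 genes most like the one of the 10 with the smallest p. The symbols Ahsp and Loricrin had no match. The other experiments of the study were not used here.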

Additional observations from a re-analysis of the deposited data

Results flagged for a closer look

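In 74 sets of 4 tumors (34 named genes and 3 library measures in each group), a tumor was counted as far from the others when its gap to the nearest, as a share of the range of log2 values, was above Dixon's 95% critical value. This happened in 5 sets, and chance gives about 1 in 20, here 3.70. Calcipotriol replicate 1 was the tumor in 4 of the 5. Its level of Cdkn1a, which encodes p21, was 114 CPM, where the others were at 59.8 to 62.5 CPM. Its level of Spp1 was 12243 CPM, where the others were at 22506 to 23351 CPM. Its level of Vdr was 56.9 CPM, where the others were at 77.6 to 81.5 CPM. Its level of Gins2, which helps to start replication forks, was 41.4 CPM, where the others were at 36.4 to 37.0 CPM. Calcipotriol replicate 6 had E2f3 at 19.2 CPM, where the others were at 22.2 to 22.8 CPM. Neither the library totals, the share of mitochondrial counts nor the number of genes with a count held such a tumor. No cause was tested.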

How the results depend on the processing

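No paired analysis was run, because the labels give no pairing of the tumors. Over all genes, 292 passed both thresholds; the number was 458 with no filter, which tests more genes, 640 with DESeq2, and 110 to 642 when a tumor was left out. It was 137, 117, 175 and 233 without EtOH replicates 1, 2, 3 and 4, and 642, 123, 110 and 116 without calcipotriol replicates 1, 5, 6 and 7, each in turn. With library totals, 175 genes were higher and 94 lower, against 155 and 137 with TMM; the cause was not tested. The median log2 fold change of all genes was 0.10 with library totals, 0.11 with no filter and 0.02 with TMM.

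Among the 10 genes, 0 passed both thresholds and 0 had an adjusted p under 0.05 in the 14 alternatives run for each count. The number whose groups did not overlap was 0, but 1 with library totals (Ccnd3) and 0 to 2 when a tumor was left out: Ccnd3 and Cdkn2b without EtOH replicate 1, Cdkn1a without calcipotriol replicate 1 and Ccnd3 without calcipotriol replicate 7. Of all genes, 12.9%, 17.8%, 23.0% and 15.4% did not overlap in these fits, in this order. Of 125 log2 fold changes of the 9 tested genes under the alternatives, 119 kept their direction and 6 changed sign, to 0.0161 for Cdk4 and 0.0575 for Cdk6 with library totals, and 4 times in 3 fits that left out a tumor. With a tumor left out, Ccnd1 ranged from -0.374 to 0.0301 (above 0 without EtOH replicate 3), Cdk4 from -0.173 to 0.0117 (above 0 without EtOH replicate 4) and Cdk6 from -0.0832 to 0.0474 (above 0 without EtOH replicate 3 and, at 0.0167, without calcipotriol replicate 6). Cdkn2b and all T cell markers were too low for the minimum of 10 counts. Of 237 list medians under the alternatives, 221 moved by less than the median standard error of their genes.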

Other observations

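Cdkn2a and Cdkn2b lie next to each other on chromosome 4, and their nearest protein-coding neighbours, looked up after the values were seen, had higher levels. Mtap, an enzyme that salvages methionine, ends 93389 bases from Cdkn2a. It was at 764, 1002, 980.1 and 939 CPM in EtOH replicates 1, 2, 3 and 4 and at 773, 831, 834 and 955 CPM in calcipotriol replicates 1, 5, 6 and 7. Its mean level was 274 CPM per kilobase of exon, beside 0.157 for Cdkn2a and 0.302 for Cdkn2b, and its groups overlapped (log2 fold change -0.12 (SE 0.14, edgeR adjusted p = 0.700)). Dmrta1, a transcription factor gene 368396 bases away on the other side of the pair, was at 15.4, 19.9, 14.97 and 17.4 CPM with EtOH and at 12.8, 6.34, 27.1 and 34.0 CPM with calcipotriol, lowest in calcipotriol replicate 5 and highest in calcipotriol replicates 6 and 7. The low level of the INK4 genes was therefore not shared by the genes beside them in any of the 8 tumors.

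The E-type cyclins, which act after the D-type cyclins and were looked at after their values were seen, followed Ccnd1 in the EtOH-treated tumors. Ccne1 was at 2.62, 2.82, 7.65 and 7.58 CPM with EtOH and at 4.37, 5.11, 8.74 and 8.30 CPM with calcipotriol. Ccne2 was at 6.22, 8.12, 17.4 and 14.4 CPM with EtOH and at 10.04, 15.2, 10.8 and 13.2 CPM with calcipotriol. Both were lowest of the 8 tumors in EtOH replicates 1 and 2, and the groups overlapped. They did not follow Ccnd1 in the calcipotriol-treated tumors, where replicate 1 had the most Ccnd1 (677 CPM) and the least of both E-type cyclins. Their log2 fold changes were 0.36 (SE 0.43, edgeR adjusted p = 0.712) and 0.09 (SE 0.32, edgeR adjusted p = 0.914).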
